A study of Mus musculus with 6 samples.

Results

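The inflammasome sensors and pyroptosis genes are described here in macrophages of the infarcted mouse heart, with and without the α5 integrin chain. Members were chosen by name: the rows of the deposited read count table whose symbol was Nlrp3, Nlrc4, Aim2, Naip1, Naip2, Naip5, Pycard, Casp1, Casp4 or Gsdmd. All 10 symbols had 1 row each among the 54532 genes listed, and all 10 were among the 14522 genes that passed the expression filter. The series held 6 RNA-seq libraries, each from the heart of an individual 12-week-old C57BL/6 mouse taken 7 days after lasting occlusion of the left anterior descending artery. Of these, 3 came from ITGA5 fl/fl mice, called controls here, whose Itga5 gene is flanked by loxP sites and intact, and 3 from Myα5KO mice, which carry the same floxed alleles and in addition LyzM-Cre. LyzM-Cre is Cre recombinase expressed from the lysozyme M gene Lyz2, which is active in monocytes, macrophages and neutrophils, so the deletion was not limited to macrophages. The control mice had no Cre, so the presence of Cre, the change at the Lyz2 locus and the loss of the integrin chain cannot be told apart. Cells with the neutrophil antigen Ly6G were depleted on magnetic columns, and CD11b+ cells were then collected.

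Inflammasomes are cytosolic protein complexes that form when a sensor detects damage or infection. The sensor recruits the adaptor ASC, encoded by Pycard, which brings in caspase-1. Caspase-1 then cleaves the precursors of IL-1β and IL-18 and the pore-forming protein gasdermin D, whose pores release the cytokines and can end in lytic cell death, called pyroptosis. NLRP3 responds to many signs of cell stress, AIM2 binds cytosolic DNA, and NLRC4 is activated through NAIP proteins that bind bacterial proteins directly: NAIP1 and NAIP2 recognise parts of the bacterial secretion needle and rod, and NAIP5 and NAIP6 recognise flagellin. Caspase-11, encoded by mouse Casp4, binds bacterial lipopolysaccharide in the cytosol and cleaves gasdermin D without a sensor. In the infarct, inflammasome activity in leukocytes and other cells is known for its part in the early inflammatory reaction. These proteins are controlled to a large extent after translation, and RNA levels do not measure inflammasome assembly.

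The NAIP genes lie side by side on chromosome 13 and are close copies, which bears on how their reads can be told apart. Over the aligned coding sequence, 90.3% of bases were identical between Naip1 and Naip2, 89.8% between Naip2 and Naip5 and 97.0% between Naip5 and the neighbouring Naip6, which is not a member but is given for comparison. The following stretch of 90 bases, positions 101 to 190 of the aligned coding sequence, is shown because it holds both kinds of sequence. Its 10 variable positions are in capitals, and the rest is identical in all 4 genes.
Naip1: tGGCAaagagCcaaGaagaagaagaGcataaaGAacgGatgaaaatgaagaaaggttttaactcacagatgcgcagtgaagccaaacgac
Naip2: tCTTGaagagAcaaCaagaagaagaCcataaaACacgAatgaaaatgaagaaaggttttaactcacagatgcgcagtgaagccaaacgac
Naip5: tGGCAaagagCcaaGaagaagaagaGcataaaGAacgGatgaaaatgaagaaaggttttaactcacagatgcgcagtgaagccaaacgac
Naip6: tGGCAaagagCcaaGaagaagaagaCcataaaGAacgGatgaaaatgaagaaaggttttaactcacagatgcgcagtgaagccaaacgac
Naip2 differed from Naip1 and from Naip5 at 10 of these positions, whereas Naip1 and Naip5 had the same bases throughout. The capitals all lie in the first part of the stretch, and the bases after the last of them do not tell any of the 4 genes apart. Across the whole annotated transcripts, 32.47% of the 50-base words of Naip1, 19.42% of those of Naip2 and 36.88% of those of Naip5 also occurred in another gene. For words of 150 bases, the read length, these shares were 5.31%, 0.56% and 8.25%. How the counting treated reads with several possible origins is not given in the sources used here, so values of the NAIP genes are uncertain to this extent. Nlrp3, Nlrc4, Casp1, Casp4 and Gsdmd shared no 50-base word with another gene. Pycard overlapped the unclassified transcript Gm45205 on the opposite strand by 485 exonic bases, and the 6 libraries gave that gene 32 counts in all.

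The promoters of 3 members are shown. Nlrp3 and Naip2 were called in opposite directions, and Naip5 was the NAIP member that was not called. Naip1, called lower, also had a promoter window, which is not printed. Each run gives the 250 bases before the annotated start (RefSeq, GRCm38.p6), and capitals mark motif matches.
Nlrp3, chr11:59542436-59542685, plus strand: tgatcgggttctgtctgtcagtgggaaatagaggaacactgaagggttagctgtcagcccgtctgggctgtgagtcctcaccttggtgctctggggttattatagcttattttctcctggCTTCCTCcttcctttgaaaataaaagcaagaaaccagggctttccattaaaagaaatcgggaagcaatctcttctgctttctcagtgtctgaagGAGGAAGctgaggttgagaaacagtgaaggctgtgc
Naip2, chr13:100202123-100202372, minus strand: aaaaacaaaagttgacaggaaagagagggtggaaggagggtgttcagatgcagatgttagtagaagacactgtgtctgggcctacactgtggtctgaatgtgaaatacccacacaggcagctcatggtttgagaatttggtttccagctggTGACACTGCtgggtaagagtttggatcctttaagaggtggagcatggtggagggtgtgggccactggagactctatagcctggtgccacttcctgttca
Naip5, chr13:100247337-100247586, minus strand: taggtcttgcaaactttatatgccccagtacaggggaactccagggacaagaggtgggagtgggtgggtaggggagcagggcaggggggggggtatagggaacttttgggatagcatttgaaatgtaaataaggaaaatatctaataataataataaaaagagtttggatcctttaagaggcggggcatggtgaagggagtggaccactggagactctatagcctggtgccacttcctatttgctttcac
Of the 10 members, all but Gsdmd had a promoter entry, with 11 windows in all, each reaching from 250 bases before to 50 bases after a start. Both strands were searched for an interferon-stimulated response element core (GAAA and GAAA with any 2 bases between them), an interferon-gamma activated site (TTCNNNGAA), a kappaB site (GGG and TTTCC with any 2 bases between them), an AP-1 site (TGANTCA), an ETS core (GAGGAAG) and an antioxidant response element (TGACNNNGC). The Nlrp3 window shown, the second of 2, held the ETS core at positions -130 and -36 relative to the start and an antioxidant response element match at position 10. The first Nlrp3 window, at the annotated 5' end of the gene, held no match. The Naip2 window held an antioxidant response element match at position -99, and the Naip5 window held no match. Casp4 was the member with kappaB matches, at positions -93 and -14, Aim2 had an ETS core at -113 and Pycard one at -43. Among 32851 promoter windows of the mouse genome, 13.6% held the ETS core, 12.4% the antioxidant response element and 1.63% the kappaB site. The interferon-stimulated response element core (3.44% of all windows), the interferon-gamma activated site (8.3%) and the AP-1 site (7.81%) had no match in the 11 windows. No pair of matches overlapped. Such matches describe letters and are not evidence of binding. The Naip2 and Naip5 windows shared an unbroken run of 34 bases shortly before the start, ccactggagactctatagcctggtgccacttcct, while the longest run shared by Naip1 and Naip2 was 11 bases.

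Library totals lay between 15424451 and 18419287 counts, and every Myα5KO total exceeded every ITGA5 fl/fl total. Itga5 was 607 ± 43.2 CPM (counts scaled to a common library size) in control libraries and 48.7 ± 1.48 CPM without the gene (SD, n = 3 each). Lyz2, which carries the Cre insertion, had a mean of 7315 CPM in controls and 3874 CPM in Myα5KO libraries. Macrophage markers, 8 genes in all, summed to 10387 to 10509 CPM in control libraries and 9846 to 10344 CPM in Myα5KO libraries. The macrophage sum was thus lower in every Myα5KO library than in any control library. Of the 8 genes, however, only Fcgr1 was called, and it was higher in Myα5KO libraries. It had means of 195 and 235 CPM (log2 fold change 0.27, adjusted p = 0.0215). The other 7 were not called. Sums for several other cell types also separated by genotype. The 10 neutrophil markers summed to 187 to 226 CPM in control libraries and 246 to 372 CPM in Myα5KO libraries, although Ly6g itself was at or near 0 throughout (0 to 0.107 CPM). Csf3r, with means of 155 and 169 CPM and not called, made up most of this sum. Of the 8 neutrophil markers tested, 5 were called higher, and the median log2 fold change was 1.53. These were Ltf (2.05), Camp (1.89), Ngp (1.85), S100a9 (1.55) and S100a8 (1.51), whose means reached 11.7 to 35.3 CPM in Myα5KO libraries. Retnlg went the other way, with means of 4.81 CPM in control and 3.1 CPM in Myα5KO libraries (-0.65, not called). Cxcr2 was below the expression filter, at 0.445 and 0.39 CPM. The 6 monocyte markers, Ly6c2 and Ccr2 among them, summed to 290 to 381 CPM and 450 to 454 CPM, and the 7 fibroblast markers to 1618 to 1897 CPM and 1209 to 1578 CPM. Sums also did not overlap for 8 T and NK cell markers (14.7 to 20.3 against 22 to 28 CPM) and 5 cardiomyocyte markers (17.6 to 20 against 11.4 to 16 CPM). They overlapped or met for dendritic (93.1 to 121 and 113 to 125 CPM), B cell (68.9 to 108 and 108 to 175 CPM) and endothelial markers (228 to 252 and 252 to 282 CPM). Both neutrophils and monocytes express inflammasome genes, and the part of these cells in the results that follow was not tested. In bulk RNA, fewer cells of a type and less RNA per cell cannot be told apart.

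Nlrp3 was by far the most abundant of the 10 transcripts per unit of length, and Naip1 the least. The deposited FPKM are counts divided by the deposited gene length and a constant per library. On this scale Nlrp3 had a mean of 214 over the 6 libraries, with a range of 178 to 241, and held rank 205 among all genes. Next came Gsdmd with a mean of 32.7 FPKM and Casp1 with 29.5 FPKM, whose ranges overlapped. They were followed by Casp4 with 18.1 FPKM and Naip5 with 14.3 FPKM, and the range of each was apart from that of the next gene up. Aim2, with 12 FPKM, overlapped both Naip5 above it and Naip2 below it, at 11.7 FPKM. Nlrc4, the partner of the NAIP sensors, had 7.64 FPKM and overlapped Pycard, the shared adaptor, with 5.37 FPKM. Naip1 followed with 0.507 FPKM and held rank 13373. Thus, the mean of Nlrp3 was 6.54 times that of Gsdmd and 39.9 times that of Pycard. The order depends on the length assigned to each gene. Casp4 was divided by 3710 bases, the union of its exons, whereas its main transcript has 1435. Per kilobase of main transcript Casp4 had 47 CPM and stood above Gsdmd with 43.7 CPM, while Nlrp3 remained first with 217 CPM. By the same measure Aim2, with 14.9 CPM, stood above Naip5 with 14.3 CPM. Pycard was divided by 3800 bases, although its coding sequence has 579, so its low level and its ratio to Nlrp3 rest on that length.

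**Figure D1:**
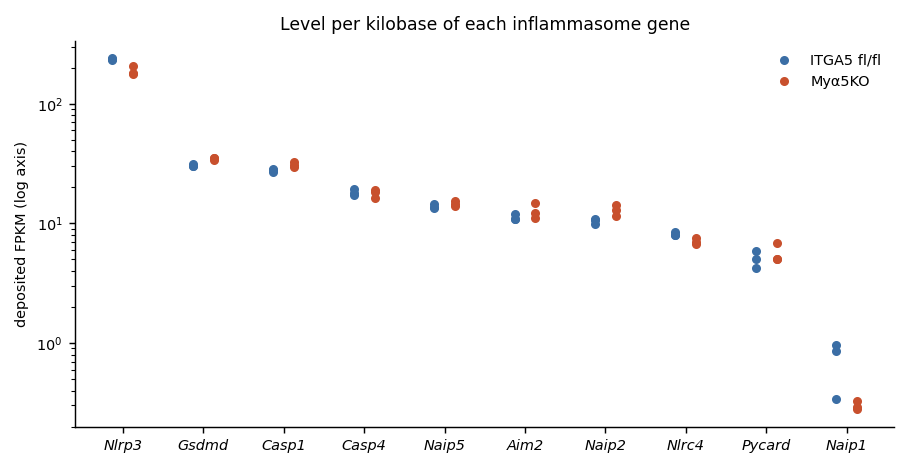
Deposited FPKM on a log axis for the 10 inflammasome genes, ordered by their mean, with 1 point per library (blue, ITGA5 fl/fl; orange, Myα5KO; n = 3 each). Nlrp3 lies at 178 to 241 FPKM and Naip1 below 1 FPKM, with the other 8 genes between them.

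In order to examine whether loss of the α5 integrin chain was associated with altered inflammasome gene expression in infarct macrophages, the 2 genotypes were compared. Nlrp3 and Naip1 were significantly lower in Myα5KO macrophages, Naip2 was significantly higher, and the other 7 genes did not pass the test. Thus 3 of 10 members were called, 1 higher and 2 lower, whereas 8.75% of all tested genes were called, 3.56% higher and 5.19% lower. CPM of the groups did not overlap for 6 of the 10 members, against 28.6% of all tested genes. The unadjusted p was below 0.05 for 6 of the 10 as well, against 23.1%. The median log2 fold change (Myα5KO over ITGA5 fl/fl) was 0.12 over the members and 0.015 over all tested genes. DESeq2 called the same number, 3 of 10, against 9.24% of its tested genes. With each library left out in turn the number of calls lay between 0 and 2. It was 0 without ITGA5 fl/fl replicate 2 or 3, when 4 and 5 members had an unadjusted p below 0.05. It was 1 without Myα5KO replicate 2, and 2 without ITGA5 fl/fl replicate 1, Myα5KO replicate 1 or Myα5KO replicate 3. Limma on log2(FPKM + 1) called 0 of the 9 members above its FPKM filter, of which 5 had an unadjusted p below 0.05.

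**Figure D2:**
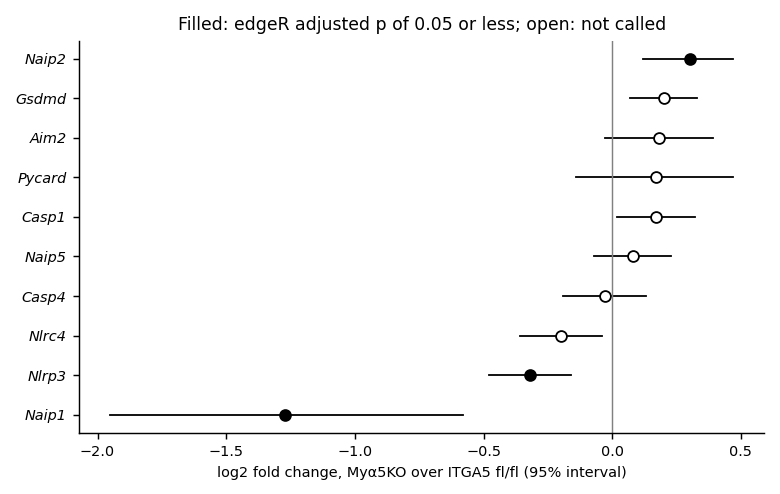
Log2 fold change of each member, Myα5KO over ITGA5 fl/fl, with its 95% interval from the edgeR fit (n = 3 libraries per group). Filled points, called at an adjusted p of 0.05, are Naip2 at 0.30, Nlrp3 at -0.32 and Naip1 at -1.27, and open points are the 7 genes that were not called.

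Among the sensors, Nlrp3 (ENSMUSG00000032691, GRCm38 chromosome 11, 59541568 to 59566956, plus strand) had 971, 953 and 979 CPM in control libraries and 740, 848 and 736 CPM in Myα5KO libraries. All 3 Myα5KO values lay below all ITGA5 fl/fl values, and the control libraries were tightly grouped. Mean expression was 968 ± 13.2 CPM in control libraries and 775 ± 63.7 CPM in Myα5KO libraries (SD, n = 3 per genotype). The log2 fold change was -0.32 (SE 0.07, 95% interval -0.48 to -0.16) with an adjusted p of 0.0172. At 13902 to 17206 counts per library, counting error was below the spread between libraries. The call was lost without ITGA5 fl/fl replicate 2 (adjusted p = 0.0594) or replicate 3 (adjusted p = 0.0704), although the fold change stayed between -0.39 and -0.29 whichever library was left out.

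Aim2 (ENSMUSG00000037860, chromosome 1, 173350879 to 173466040, plus strand), the DNA sensor, had 38.5, 42.4 and 38.2 CPM in control libraries and 39.2, 43.2 and 52.6 CPM in Myα5KO libraries. The groups overlapped, and Myα5KO replicate 3 was above the rest. The log2 fold change of 0.18 (95% interval -0.03 to 0.39) did not pass the test (adjusted p = 0.3).

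Nlrc4 (ENSMUSG00000039193, chromosome 17, 74425438 to 74459142, minus strand), which relays the signal of the NAIP sensors, had 38.1, 40.7 and 37.8 CPM in ITGA5 fl/fl libraries. The Myα5KO libraries had 35.9, 32.2 and 33.4 CPM. Each Myα5KO value was below each control value. However, the log2 fold change of -0.20 (SE 0.08, 95% interval -0.36 to -0.04) had an adjusted p of 0.13 and was not called.

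Among the NAIP members, Naip2 was called higher, Naip1 was called lower and Naip5 was not called. Differences between these genes were not tested. Naip2 (ENSMUSG00000078945, chromosome 13, 100144063 to 100202092, minus strand) had 53.2, 52.2 and 48.3 CPM in control libraries and 69.8, 62.5 and 56.6 CPM in Myα5KO libraries. The groups did not overlap, but Myα5KO replicate 3 was close to the controls. Mean expression was 51.2 ± 2.57 CPM in controls and 63 ± 6.59 CPM in Myα5KO (SD, n = 3 each), an increase to 123% of control. The log2 fold change was 0.30 (SE 0.08, 95% interval 0.12 to 0.47) with an adjusted p of 0.0369. Of the 6 fits that each left out 1 library, 1 called Naip2, the fit without Myα5KO replicate 3 (adjusted p = 0.0130), and over all 6 the log2 fold change lay between 0.21 and 0.37.

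Naip1 (ENSMUSG00000021640, chromosome 13, 100407764 to 100452869, minus strand) was scarce, with 28, 91 and 83 counts in control libraries and 34, 29 and 31 counts in Myα5KO libraries. On the CPM scale these were 1.88, 5.35 and 4.72 CPM against 1.81, 1.55 and 1.63 CPM. ITGA5 fl/fl replicate 1 was therefore at the level of the Myα5KO libraries, and the difference rested on the other 2 control libraries. Mean expression was 3.98 ± 1.85 CPM and 1.66 ± 0.132 CPM (SD, n = 3 each), with a log2 fold change of -1.27 (SE 0.32, 95% interval -1.95 to -0.58) and an adjusted p of 0.0259. The call was lost without ITGA5 fl/fl replicate 2 (adjusted p = 0.123) or 3 (0.11) and without Myα5KO replicate 2 (0.0701) or 3 (0.0656). Sequence shared with the other NAIP genes adds to the uncertainty at this depth.

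Naip5 (ENSMUSG00000071203, chromosome 13, 100211739 to 100246323, minus strand), one of the flagellin sensors, had 75.6, 70.7 and 71.5 CPM in control libraries and 72.6, 75.3 and 82.3 CPM in Myα5KO libraries. The groups overlapped, and the log2 fold change of 0.08 (95% interval -0.07 to 0.23) was not significant (adjusted p = 0.526). Naip6, the other flagellin sensor, had a log2 fold change of 0.15 (adjusted p = 0.198). Naip2 took 28.9%, 28.8% and 27.8% of the counts of Naip1, Naip2, Naip5 and Naip6 together in ITGA5 fl/fl libraries and 34.9%, 31.3% and 28.7% in Myα5KO libraries. These shares overlapped, because Myα5KO replicate 3 was within the control range. The summed level of the 4 genes was 184, 182 and 174 CPM in control libraries and 200, 199 and 198 CPM in Myα5KO libraries. This sum does not depend on how counted reads were divided among the 4 copies, and its groups did not overlap. It does not cover Naip3, which shared 23.18% of the 50-base words of Naip1, 10.81% of Naip2 and 14.51% of Naip5. Reads left uncounted because of several possible origins would be missing from it.

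Pycard (ENSMUSG00000030793, chromosome 7, 127989708 to 127993867, minus strand), the adaptor shared by the sensors, had 16, 19.4 and 22.6 CPM in control libraries and 19.2, 19.4 and 26.6 CPM in Myα5KO libraries. The groups overlapped and the spread within each was wide. The log2 fold change was 0.17 (SE 0.14, 95% interval -0.14 to 0.47, adjusted p = 0.532), and it was -0.01 without Myα5KO replicate 3.

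Casp1 (ENSMUSG00000025888, chromosome 9, 5298517 to 5307265, plus strand), the protease of the canonical inflammasome, had 42.7, 42.2 and 40.5 CPM in ITGA5 fl/fl libraries. The Myα5KO libraries had 49.1, 44.9 and 47.2 CPM. All Myα5KO values were above all control values. The log2 fold change of 0.17 (SE 0.07, 95% interval 0.02 to 0.32) did not pass the test (adjusted p = 0.157). Casp4 (ENSMUSG00000033538, chromosome 9, 5308828 to 5336783, plus strand), the neighbouring gene, had 71.9, 64.9 and 67.4 CPM in control libraries and 60.5, 70.3 and 69.4 CPM in Myα5KO libraries. Its groups overlapped, and its log2 fold change was -0.03 (95% interval -0.19 to 0.13, adjusted p = 0.862), with a sign that turned in 3 of 18 alternatives.

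Gsdmd (ENSMUSG00000022575, chromosome 15, 75862327 to 75867408, plus strand), the pore-forming target of both caspases, had 74.3, 72.1 and 72.4 CPM in control libraries and 83.8, 81.4 and 85.9 CPM in Myα5KO libraries. The groups were well apart and tightly clustered, at 72.9 ± 1.15 and 83.7 ± 2.22 CPM (SD, n = 3 each). The log2 fold change of 0.20 (SE 0.06, 95% interval 0.07 to 0.33) missed the threshold, with an adjusted p of 0.0613. Casp1 and Gsdmd were called with scaling by library size alone (adjusted p = 0.0352 and 0.0121). That scaling moved the median of all tested genes from 0.015 to 0.095.

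**Figure D3:**
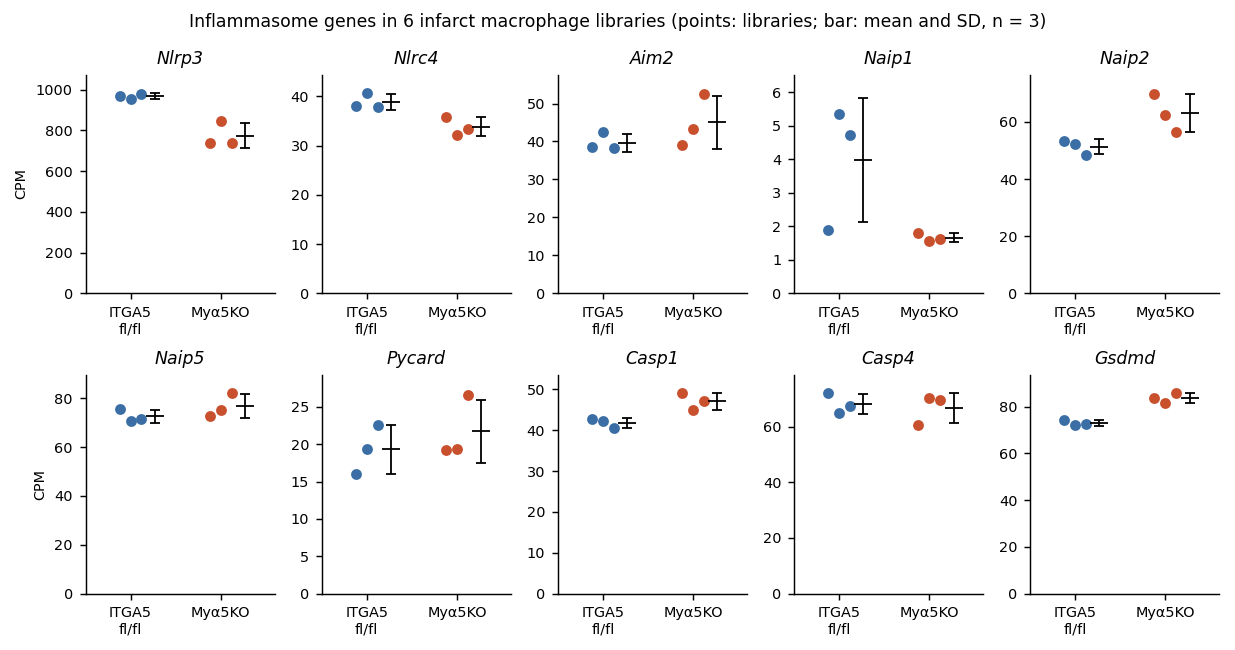
CPM of the 10 members in each library (blue, ITGA5 fl/fl; orange, Myα5KO), with the mean and SD of each group (n = 3) as a bar beside its points, and each axis starting at 0. The groups are apart for Nlrp3, Nlrc4, Naip2, Casp1 and Gsdmd, whereas ITGA5 fl/fl replicate 1 of Naip1, at 1.88 CPM, is at the level of the Myα5KO libraries.

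The balance between sensor and effector transcripts was then compared within libraries, where scaling between libraries plays no part. Nlrp3 had 22.8, 22.6 and 24.2 counts per Casp1 count in control libraries and 15.1, 18.9 and 15.6 in Myα5KO libraries. Gsdmd had 0.0765, 0.0757 and 0.074 counts per Nlrp3 count in control libraries and 0.113, 0.096 and 0.117 in Myα5KO libraries. Neither ratio overlapped between genotypes. This was set in advance, because Nlrp3 was lower and Casp1 and Gsdmd were higher in every Myα5KO library than in any control library. Both ratios rest on the same Nlrp3 values and were not tested.

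The other genes of the pathway were followed in 7 lists with 96 genes, of which 85 passed the expression filter, 22 were higher and 12 lower in Myα5KO macrophages. Beside each list, here and below, stand the shares over all tested genes. Of these, 3.56% were called higher and 5.19% lower, and 23.1% had an unadjusted p below 0.05 in either direction. Of the guanylate binding proteins and immunity-related GTPases, which help to expose bacterial products to AIM2 and caspase-11, 9 of 12 tested genes rose and none of the 12 fell, with a median log2 fold change of 0.45. Unadjusted, 10 had a p below 0.05, all higher, and DESeq2 called 7, all higher. The number called higher was 5 without ITGA5 fl/fl replicate 3 and also 5 without Myα5KO replicate 2. Examples are Irgm2 (11.7 to 17.1 CPM, log2 fold change 0.54, adjusted p = 0.00998) and Gbp2 (29 to 40.1 CPM, 0.46, adjusted p = 0.0301). Igtp, Gbp4, Gbp7 and Gbp8 rose by 0.52, 0.46, 0.45 and 0.76 on the log2 scale. With single libraries left out, Gbp4 and Gbp8 were called in 1 of 6 fits, the one without Myα5KO replicate 1. Irgm2 and Gbp7 lost their call without ITGA5 fl/fl replicate 3, and Igtp without Myα5KO replicate 2. Of the AIM2-like receptors, relatives of Aim2 in the family of interferon-inducible DNA-binding proteins, 4 of 9 tested genes rose, with a median of 0.24. The number was 2 when ITGA5 fl/fl replicate 1, ITGA5 fl/fl replicate 3 or Myα5KO replicate 2 was absent, and Mndal and Ifi204 were then not called. Ifi209 was raised from 42.9 to 62.3 CPM (log2 fold change 0.54, adjusted p = 0.00156), Ifi213 by 0.50 (adjusted p = 0.00441), Mndal by 0.26 (0.0242) and Ifi204 by 0.24 (0.0374). The call of Gbp2 held without ITGA5 fl/fl replicate 2 or Myα5KO replicate 3 and that of Ifi204 without Myα5KO replicate 3, and both were lost when any other library was left out.

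Of the IL-1 and IL-18 ligands and receptors, 3 of 10 fell and the median was -0.05. Il1a, encoding IL-1α, had 131, 211 and 233 CPM in control libraries and 81.7, 75.3 and 72.7 CPM in Myα5KO libraries. Every Myα5KO value was below the lowest control value, and the log2 fold change was -1.33 (SE 0.15, adjusted p = 2.72e-04). Il1b, encoding the caspase-1 substrate IL-1β, had 1798, 1830 and 2014 CPM in control libraries and 1482, 1654 and 1485 CPM in Myα5KO libraries. The groups did not overlap, with a log2 fold change of -0.29 (SE 0.08, adjusted p = 0.0359). With single libraries left out this call held in 1 of 6 fits, the one without Myα5KO replicate 2 (adjusted p = 0.0398). Without any other library the adjusted p of Il1b was above the threshold, up to 0.166 without ITGA5 fl/fl replicate 3. Il1r1, the signalling receptor of IL-1, fell from 18 to 11.7 CPM (log2 fold change -0.62, adjusted p = 0.00384). Il18 had 14.4 and 16.2 CPM, a log2 fold change of 0.17 and an adjusted p of 0.328.

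Of the other sensors and sensor co-factors, 2 of 11 tested genes rose and 1 fell, with a median of 0.09. Mefv, which encodes the sensor pyrin, fell from 179 to 124 CPM (log2 fold change -0.53, SE 0.09, adjusted p = 0.00287). Nlrp1a rose from 5.49 to 8.29 CPM (log2 fold change 0.59, adjusted p = 0.0146), and Txnip, encoding a thioredoxin-binding protein that can bind NLRP3, from 94.4 to 128 CPM (0.43, adjusted p = 0.0244). Leaving out ITGA5 fl/fl replicate 3 ended both rises, so that edgeR called 0 genes of this list higher, with 3 higher at an unadjusted p below 0.05. Nlrp1a also lost its call without Myα5KO replicate 2, and Txnip without ITGA5 fl/fl replicate 1 or Myα5KO replicate 3. Of the genes of lytic and apoptotic cell death, 3 of 13 tested rose and 2 fell, with a median of 0.08. Ninj1, whose product ruptures the plasma membrane late in pyroptosis, fell from 451 to 346 CPM (log2 fold change -0.38, SE 0.07, adjusted p = 0.0037). Cflar, an inhibitor of caspase-8, fell from 670 to 455 CPM (-0.56, adjusted p = 8.42e-04). Zbp1, a nucleic acid sensor, rose from 32.8 to 45.8 CPM (0.48, adjusted p = 0.022), and Casp9, the initiator caspase of the mitochondrial route of apoptosis, rose by 0.41 on the log2 scale. None of the 3 rises was called by edgeR without ITGA5 fl/fl replicate 3 or without Myα5KO replicate 2, when 4 and 3 genes of the list were higher at an unadjusted p below 0.05. Zbp1 was also not called without ITGA5 fl/fl replicate 1, nor Casp9 without ITGA5 fl/fl replicate 2. Both decreases were called whichever library was left out.

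Of the negative regulators, 1 of 13 tested genes rose and 3 fell, and the median log2 fold change rounded to 0. Those that fell were Tnip1 (183 to 114 CPM, log2 fold change -0.68), Sqstm1 (2902 to 1927 CPM, -0.59) and Tnfaip3 (1275 to 1007 CPM, -0.34), which restrain NF-κB signalling or, for Sqstm1, deliver cargo to autophagy. Trim30a rose by 0.41. Of the receptors and factors that prime inflammasome genes, 3 of 17 rose and 3 fell, with a median of 0.02. Nfkb1, a subunit of NF-κB, fell from 687 to 427 CPM (log2 fold change -0.69, adjusted p = 3.59e-04). The lipopolysaccharide co-receptor Cd14 fell from 4755 to 3489 CPM (-0.45) and the receptor Tlr2 from 1446 to 1172 CPM (-0.30). The interferon signalling genes Irf7 (119 to 163 CPM, 0.45) and Stat2 (61.2 to 75 CPM, 0.29) rose. Tnfaip3 and Tlr2 were called in 3 and 2 of the 6 fits with a library left out, and Stat2 in 3. Monocyte and neutrophil marker sums were also higher in every Myα5KO library than in any ITGA5 fl/fl library, and their part in these lists was not tested. Of the 31 called genes that the naming rule selected from the 7 lists, 14 were called in all 6 fits with a library left out, among them Il1a, Il1r1, Mefv, Ninj1, Nfkb1, Ifi209 and Irf7. The other 17 lost their call in at least 1 of these fits, with 16 lost when ITGA5 fl/fl replicate 3 was absent, 11 when ITGA5 fl/fl replicate 1 or Myα5KO replicate 2 was absent, and 4 to 7 for each of the others.

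**Figure D4:**
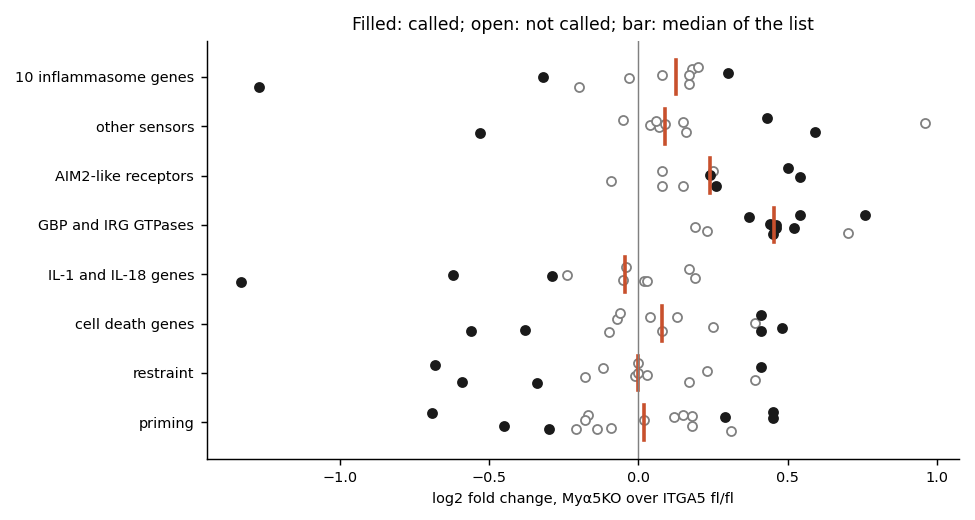
Log2 fold change, Myα5KO over ITGA5 fl/fl, of each tested gene in the group of 10 members and in 7 further lists (filled, adjusted p of 0.05 or less; open, not called; orange bar, median of the list). The medians run from -0.05 for the IL-1 and IL-18 genes to 0.45 for the GBP and IRG GTPases, and the median of the 10 members is 0.12.

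The 3 called members kept their direction in every alternative that tested them, but not their calls. Over 18 alternatives Nlrp3 kept a log2 fold change between -0.39 and -0.24 and was called in 13. Naip2 lay between 0.21 and 0.38 and was called in 10 of 18. Naip1 was below 0 in all 16 alternatives that tested it, between -1.59 and -0.38, and was called in 10. Gsdmd, between 0.18 and 0.28, and Casp1, between 0.13 and 0.25, were called in 1 alternative each. The other 5 members were called in 0 of 18 alternatives, in which Aim2 lay between 0.05 and 0.27, Pycard between -0.01 and 0.29 and Casp4 between -0.07 and 0.05.

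**Figure D5:**
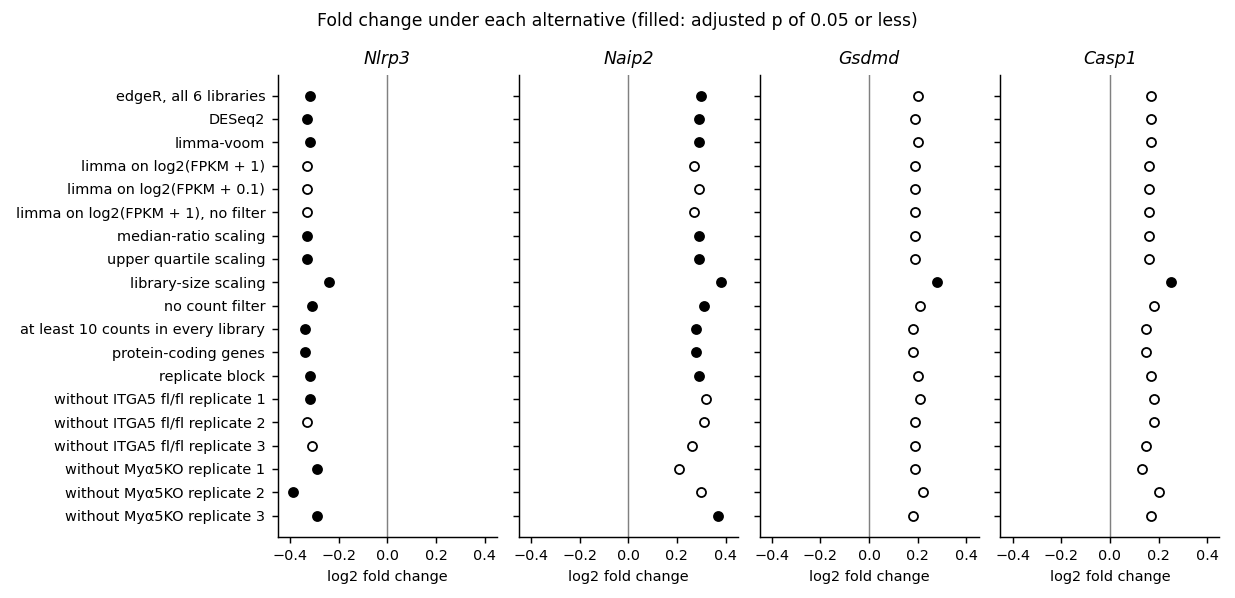
Log2 fold change of Nlrp3, Naip2, Gsdmd and Casp1 (horizontal axes) in the edgeR fit of all 6 libraries and in 18 alternatives (rows), filled where the adjusted p was 0.05 or less. Nlrp3 is below 0 in every row and called in 13 alternatives, whereas Gsdmd is above 0 in every row and called in 1.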

How the data were processed

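Reads of 150 bp paired-end libraries were cleaned by the authors (adapters, poly-N, low quality), aligned to GRCm38 with TopHat2 2.0.9 and counted reads per gene with HTSeq 0.6.1. Strand and multi-mapping settings are not given in the sources used here. The deposited counts are unnormalized. The deposited FPKM equal counts divided by gene length and a constant per library, and served for levels. The main test was edgeR 4.0.16, quasi-likelihood (R 4.3.3; TMM scaling; minimum count 10, minimum total 15; no covariate). P-values are two-sided, adjusted by Benjamini-Hochberg over all 14522 tested genes, and called at 0.05. CPM are TMM-scaled, and 95% intervals use 13.5 degrees of freedom. DESeq2 1.42.0 and limma 3.58.1 were alternatives. Scripts were tested on simulated data. Annotation was GENCODE M21.

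The members, lists, motifs and tests were chosen with earlier results of these data known. Named genes were Itga5, Lyz2, all 10 members, Il1a, Il1b, Il18 and, per list, up to 6 called genes with the largest fold change. Naip6, Ly6g and single neutrophil, macrophage and monocyte markers were named for context after their values were seen. Libraries of a group differed by more than sampling noise. Counts carry no molecular identifiers, so the precision that depth gives covers counting error only. No protein sequence was used here, and some genes counted in the lists are not reported here by name.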

Additional observations from a re-analysis of the deposited data

How the results depend on the processing

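The main test called 3 members (1 higher, 2 lower), 34 genes of the pathway lists (22 higher, 12 lower) and 1271 of all genes (517 higher, 754 lower). Leaving out 1 library gave 0 to 2 members (0 to 1 higher, 0 to 2 lower), 19 to 32 pathway genes (10 to 21 higher, 9 to 12 lower) and 616 to 1091 genes (187 to 420 higher, 429 to 671 lower). Limma on log2(FPKM + 1) called 0 members (0 higher, 0 lower; 5 at an unadjusted p below 0.05), 17 pathway genes (8 higher) and 472 genes (150 higher, 322 lower), and with a pseudocount of 0.1 it called 0 members (5 unadjusted), 17 pathway genes (8 higher) and 448 genes (142 higher, 306 lower). Without its filter limma called 0 members (6 unadjusted), 0 pathway genes (0 higher, 0 lower; 49 unadjusted) and 10 genes (2 higher, 8 lower). Limma-voom called 1 member lower, the call of Naip1 being lost (adjusted p = 0.0686). Library-size scaling called 5 members (3 higher) and 1212 genes higher, and no count filter called 798 genes higher. At an adjusted p of 0.01 edgeR called 0 members (6 unadjusted), 18 pathway genes (9 higher) and 470 genes (128 higher, 342 lower). Direction reversed for Pycard without Myα5KO replicate 3 (-0.01) and for Casp4 when ITGA5 fl/fl replicate 1 (0.01) or Myα5KO replicate 1 (0.03) was left out and under library-size scaling (0.05). With 1 library left out, Pycard ranged from -0.01 to 0.29 and Casp4 from -0.07 to 0.03. The cause of these changes was not tested. Same-numbered libraries did not deviate together (correlations 0.0518, -0.0749 and 0.0412, against -0.111 to 0.0768 for the other pairs). The labels state no pairing, and whether the libraries were paired is not known. With the replicate number as a block, edgeR called 3 members, 33 pathway genes and 1181 genes, and Il1b was not called (adjusted p = 0.0649). Fits without 1 library assume that the remaining pair varies like the group of 3. The fit without a count filter had infinite prior degrees of freedom, which gives every gene the shared spread. Depth was lowest for Naip1, at 28 to 91 counts per library.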

Other observations

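Casp1 and Casp4 lie next to each other on the plus strand of chromosome 9, and their balance was compared within libraries. Casp1 had 0.594, 0.651 and 0.601 counts per Casp4 count in control libraries and 0.811, 0.639 and 0.68 in Myα5KO libraries. The groups overlapped, and Myα5KO replicate 1 was above the rest. Naip2 and Naip5 are also neighbours, on the minus strand of chromosome 13. Naip2 had 0.703, 0.739 and 0.675 counts per Naip5 count in control libraries and 0.962, 0.83 and 0.688 in Myα5KO libraries, which overlapped as well, with Myα5KO replicate 3 inside the control range. No test was run on these ratios.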
